A study of Homo sapiens with 15 samples.

Results

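Promoters at which H3K4me3 moved the same way in both metastatic sub-populations of the MDA-MB-231 breast cancer line were collected from ChIP-seq counts over 22572 consensus peaks. The cells were the unselected line (Par), the lung-metastatic LM2 and the brain-metastatic BrM2, with 2 replicates each and 6 H3K4me3 libraries in all. A peak within 2 kb of a protein-coding transcript start was a promoter peak, and there were 13369. A promoter peak was shared when the mean of LM2 and BrM2, each weighted equally, differed from Par with an adjusted p under 0.05 and when all 4 metastatic libraries lay on the same side of both Par libraries. The rule kept 291 of the 13369 promoter peaks. Of these, 215 were higher in the metastatic lines and stood at starts of 218 genes, and 76 were lower and stood at starts of 81 genes.

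MDA-MB-231 is an established triple-negative line of mesenchymal character. LM2 and BrM2 were derived from it by selection in mice, each is a single sub-population, and all libraries came from untreated cells kept in medium with 10% serum during 3 days of growth and then cross-linked with 1% formaldehyde. Values in LM2 and BrM2 therefore describe these cultures and not metastases in an animal. Sums in peaks ran from 3489607 to 9839629 counts per H3K4me3 library, and replicate 2 was the deeper library in each line. The H3K4me3 promoters of 7 markers of this line (VIM, CD44, AXL, ZEB1, CAV1, EGFR and FOSL1) were marked in every library, with summed normalized counts of 8990 to 11000 in Par, 8030 to 10200 in LM2 and 9020 to 10600 in BrM2. CAV1 was lower in the metastatic libraries, with 1100 and 1070 (Par), 570 and 720 (LM2) and 610 and 686 (BrM2). It was not called (log2 fold change -0.74, DESeq2 adjusted p = 0.126). The other markers ran from -0.17 (ZEB1) to 0.21 (CD44). None of the 5 endothelial markers assessed (CDH5, VWF, TEK, CLDN5 and EMCN) had a promoter peak. PECAM1 was planned as a further marker and was not assessed. The leukocyte list had promoter peaks at 3 of 7 markers, none of them at PTPRC or CD3E. Its sums were 582 to 753 in Par, 628 to 819 in LM2 and 619 to 747 in BrM2. Most of each sum came from HCST, which had 707 and 493 (Par), 779 and 534 (LM2) and 701 and 530 (BrM2).

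H3K4me3 is trimethylated lysine 4 of histone H3, laid down around the starts of active and poised genes by the SET1 and MLL methyltransferases and read by factors that help recruit RNA polymerase. Promoters rich in CG dinucleotides tend to carry the mark broadly, and CG-poor promoters carry it mainly where the gene is used. H3K27ac, acetylated lysine 27 of the same histone, marks active promoters and enhancers and was counted in separate libraries of the same lines. In bulk chromatin, more cells carrying a mark and more mark per cell cannot be told apart.

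The promoters with the largest changes differed widely in sequence. PLCB1 is shown as an example promoter in the study. The 250 bases upstream of the start are given for it and for the 4 largest rises and 3 of the 4 largest falls, since these are the regions that the largest values below refer to. Each is read 5′ to 3′ on the strand of its gene in hg19, with CG dinucleotides in capitals.
AMPH (chr7:38670974-38671223, minus strand): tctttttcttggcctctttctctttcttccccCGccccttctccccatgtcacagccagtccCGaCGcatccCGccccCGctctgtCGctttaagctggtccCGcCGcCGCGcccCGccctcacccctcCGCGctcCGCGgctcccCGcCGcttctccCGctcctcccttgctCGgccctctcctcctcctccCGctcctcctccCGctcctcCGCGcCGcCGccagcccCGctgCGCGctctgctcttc
ENG (chr9:130616938-130617187, minus strand): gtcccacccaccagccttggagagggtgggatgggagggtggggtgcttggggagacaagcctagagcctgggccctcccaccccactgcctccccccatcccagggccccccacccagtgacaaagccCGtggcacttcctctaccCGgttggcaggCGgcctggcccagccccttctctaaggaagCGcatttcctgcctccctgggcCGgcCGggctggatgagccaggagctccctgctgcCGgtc
AFF3 (chr2:100721179-100721428, minus strand): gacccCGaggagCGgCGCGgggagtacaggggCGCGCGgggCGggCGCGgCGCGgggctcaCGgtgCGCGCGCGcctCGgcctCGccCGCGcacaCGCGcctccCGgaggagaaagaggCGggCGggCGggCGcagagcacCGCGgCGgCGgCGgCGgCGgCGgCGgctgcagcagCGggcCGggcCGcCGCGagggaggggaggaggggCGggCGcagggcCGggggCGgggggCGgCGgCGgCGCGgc
SPARC (chr5:151066477-151066726, minus strand): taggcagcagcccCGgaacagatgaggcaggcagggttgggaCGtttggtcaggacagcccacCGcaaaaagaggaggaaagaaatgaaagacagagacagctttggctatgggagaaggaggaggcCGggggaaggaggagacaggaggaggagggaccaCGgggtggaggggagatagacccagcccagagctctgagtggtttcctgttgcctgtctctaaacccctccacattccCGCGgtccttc
PLCB1 (chr20:8112663-8112912, plus strand): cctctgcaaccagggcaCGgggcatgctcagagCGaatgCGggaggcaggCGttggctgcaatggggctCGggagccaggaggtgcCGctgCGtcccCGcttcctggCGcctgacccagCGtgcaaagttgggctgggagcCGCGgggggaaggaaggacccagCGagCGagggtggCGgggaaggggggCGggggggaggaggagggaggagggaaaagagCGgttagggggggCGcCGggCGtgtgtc
KLF14 (chr7:130418968-130419217, minus strand): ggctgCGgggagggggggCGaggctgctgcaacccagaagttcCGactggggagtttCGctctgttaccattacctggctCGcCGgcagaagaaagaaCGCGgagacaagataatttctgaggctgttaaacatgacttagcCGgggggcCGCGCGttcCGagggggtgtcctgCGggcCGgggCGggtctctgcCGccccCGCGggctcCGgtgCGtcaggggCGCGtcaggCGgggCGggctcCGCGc
RNF165 (chr18:43913731-43913980, plus strand): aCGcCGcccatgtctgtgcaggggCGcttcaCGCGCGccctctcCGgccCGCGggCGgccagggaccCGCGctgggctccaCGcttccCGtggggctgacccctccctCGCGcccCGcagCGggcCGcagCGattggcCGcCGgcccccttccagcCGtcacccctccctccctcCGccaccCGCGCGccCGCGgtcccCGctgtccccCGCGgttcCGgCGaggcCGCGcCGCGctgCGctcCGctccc
CLDN4 (chr7:73245076-73245325, plus strand): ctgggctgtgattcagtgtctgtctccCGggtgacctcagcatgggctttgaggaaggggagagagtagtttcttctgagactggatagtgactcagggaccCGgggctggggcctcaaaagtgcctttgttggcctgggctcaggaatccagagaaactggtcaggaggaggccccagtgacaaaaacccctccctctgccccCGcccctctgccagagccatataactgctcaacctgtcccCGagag
AFF3 had 51 CG dinucleotides in its 250 bases, RNF165 had 40, AMPH 28, KLF14 27 and PLCB1 20. ENG and SPARC had 7 each and CLDN4 had 4. Rises and falls were thus both found at CG-dense and at CG-poor promoters. The start used for AFF3 was not the canonical start of the gene, which lies 36582 bp from the peak. The GC box GGGCGG, searched on both strands in the same window, was found at 148 of 194 genes that were higher (76.3%) and 48 of 64 that were lower (75.0%), against 73.1% of the 13780 genes with a promoter peak, each gene taken at its promoter peak with the highest mean count. The TATA box TATAAA was found at 17 of the genes that were higher (8.76%) and 2 of those that were lower (3.12%), against 4.7% of all. The other motifs searched were CCAAT (25.3% of higher, 28.1% of lower and 33.6% of all genes), CACGTG (4.64%, 6.25% and 8.64%) and TGANTCA (3.61%, 4.69% and 3.43%). The median number of CG dinucleotides was 25 at higher, 23.5 at lower and 22 at all genes.

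Among 20383 H3K4me3 peaks with an adjusted p in the metastatic comparison, 2.63% were called, 2.04% higher and 0.594% lower. All 4 metastatic libraries lay above both Par libraries at 8.98% of all peaks and 7.34% of promoter peaks, and below them at 7.66% and 9.12%. With the call added, the rule took 1.64% of tested promoter peaks as higher and 0.58% as lower. Since the rule used these counts, fold changes and adjusted p-values of H3K4me3 describe the members and are no separate test of them. A further 25 called promoter peaks overlapped between the groups and were left out. Just inside the threshold stood IGDCC3, with normalized counts (counts divided by the library's size factor) of 127 and 148 (Par), 378 and 328 (LM2) and 240 and 186 (BrM2) (adjusted p = 0.0498). Just outside it stood PPP2R3B, with 851 and 569 (Par), 494 and 369 (LM2) and 331 and 289 (BrM2) (adjusted p = 0.0513).

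The higher members started low. Their median normalized count was 63.7 in Par and 207 in the metastatic libraries, while the median promoter peak had 326 in Par, and 199 of the 215 lay below that median in Par. Their median log2 fold change was 1.59, and 76 of them rose more than 4-fold. In 9 of the 215, both Par libraries held at most 3 counts. With Par set to 3 counts per library in those, the median was 1.59. The lower members had a median normalized count of 94.5 in Par and 18.5 in the metastatic libraries, a median log2 fold change of -2.05, and 6 of the 76 had at most 3 counts in each metastatic library. With those libraries set to 3 counts each in the 6, the median was the same within rounding (-2.055). Only 9 and 6 members were altered, so neither median could move much. Over all promoter peaks the median log2 fold change was -0.037. Replicates of a line differed at the members by a median of 0.346 on the log2 scale.

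The numbers of shared peaks moved with the libraries and the design. Same-numbered libraries deviated together, and with the replicate number as a block 627 promoter peaks were shared and higher and 627 shared and lower, with 16.2% of all tested peaks called (8.48% higher and 7.72% lower). Of the 291 members, 285 were called in the same direction in that fit. Without Par replicate 1 the rule found 83 higher and 18 lower promoter peaks, and without Par replicate 2 it found 53 and 11. Without BrM2 replicate 1 it found 132 and 42, and without BrM2 replicate 2 it found 159 and 40. All 291 members kept their direction in each fit in which they were present. The rule had already placed every metastatic library of a member on the same side of both Par libraries. A kept direction was therefore largely fixed in advance and is no separate test of the members. The share of higher among shared peaks was 73.9%, while the blocked fit split evenly, and it was 85.7% after removing the median change of neighbouring peaks within 5 Mb.

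Where the normalized count averaged 50 or more over the libraries, the largest rise was at AMPH. The gene encodes amphiphysin, which bends membranes during endocytosis of synaptic vesicles. Its promoter peak (chr7:38668947-38671419) had normalized counts of 5.51 and 8.48 (Par), 346 and 244 (LM2) and 525 and 345 (BrM2). Par was nearly free of the mark here and both metastatic lines carried it, with a log2 fold change of 5.59 ± 0.52 (SE, DESeq2 adjusted p = 2.2e-23).
ENG encodes endoglin, a co-receptor for TGF-beta family ligands that is known from endothelium. Its peak (chr9:130615596-130617099) had 0 and 4.62 (Par), 77.8 and 95.3 (LM2) and 132 and 123 (BrM2). The groups were far apart, at a log2 fold change of 5.09 ± 0.72 (DESeq2 adjusted p = 9.71e-10).
AFF3 encodes a nuclear regulator of transcription elongation. At its alternative start (chr2:100720016-100722470) the counts were 18.4 and 12.3 (Par), 265 and 262 (LM2) and 418 and 447 (BrM2). Replicates lay close together in each line, and the log2 fold change was 4.53 ± 0.41 (DESeq2 adjusted p = 2.47e-24).
SPARC encodes a matricellular glycoprotein that binds collagen. Its peak (chr5:151064325-151066794) had 1.84 and 7.71 (Par), 218 and 293 (LM2) and 39.5 and 50.4 (BrM2). Both lines were above Par, and LM2 was above BrM2 in every library.

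Both phospholipase C beta genes of chromosome 20, whose products cleave membrane phosphoinositide downstream of G proteins, were among the 14 largest rises. PLCB1 (chr20:8111872-8114232) had 22.0 and 17.7 (Par), 396 and 265 (LM2) and 206 and 162 (BrM2). It rose in both lines, at a log2 fold change of 4.08 in LM2 and 3.24 in BrM2. PLCB4 (chr20:9048467-9050286) had 3.67 and 3.08 (Par), 4.57 and 9.0 (LM2) and 297 and 219 (BrM2). LM2 was above Par by a few counts only (log2 fold change 1.19 ± 0.81, DESeq2 adjusted p = 0.904), so that PLCB4 met the rule through BrM2 (6.29 ± 0.73).

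Of the other large rises, DSCAM, an adhesion molecule of developing neurons, had 7.35 and 4.62 (Par), 41.2 and 48.2 (LM2) and 254 and 187 (BrM2). TENM1, a teneurin that links cells across synapses, had 3.67 and 8.48 (Par), 71.7 and 104 (LM2) and 88.3 and 186 (BrM2). DST, the cytoskeletal linker dystonin, had 3.67 and 10.8 (Par), 68.6 and 125 (LM2) and 116 and 195 (BrM2). In these 3 genes each metastatic library exceeded both Par libraries several-fold, and for TENM1 and DST the peak lay at an alternative start. FBXL7, a substrate receptor of a ubiquitin ligase, had 20.2 and 23.9 (Par), 406 and 274 (LM2) and 262 and 250 (BrM2). RASEF, a Rab family GTPase, had 33.1 and 29.3 (Par), 493 and 282 (LM2) and 597 and 218 (BrM2). Both stood far above Par in every metastatic library, at log2 fold changes of 3.71 for FBXL7 and 3.68 for RASEF. PDE10A, a phosphodiesterase of cyclic nucleotides, and GYPC, glycophorin C of the red cell membrane, closed the group at 3.22 and 3.21. The peak of PDE10A also lay at an alternative start. All 14 rises stayed called without any 1 of the 6 libraries except PLCB4 and GYPC, which were lost without Par replicate 2.

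**Figure D1:**
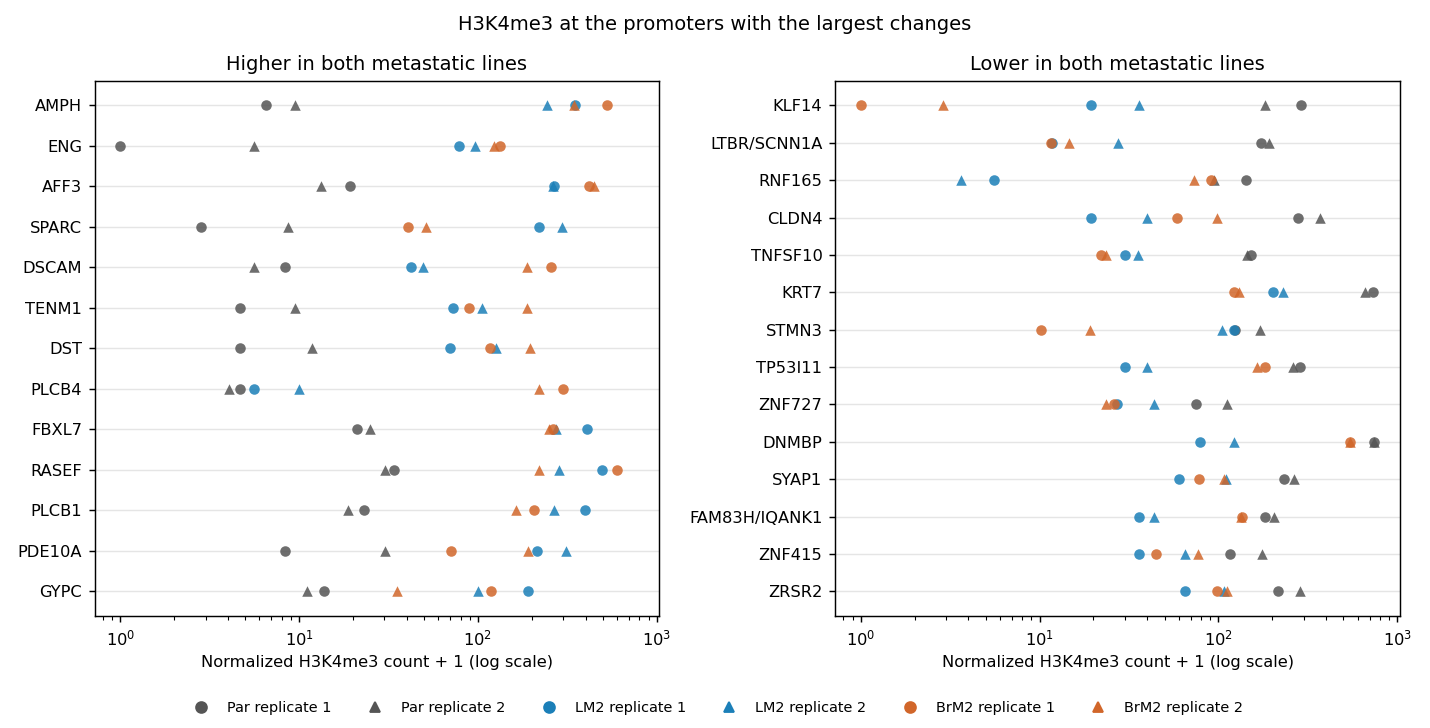
Normalized H3K4me3 counts plus 1 (log axis) in each of the 6 libraries at 13 of the 14 promoter peaks with the largest rise (left) and the 14 with the largest fall (right), with circles for replicate 1, triangles for replicate 2 and colours for the line. At AMPH the Par libraries stand at 5.51 and 8.48 before adding 1 and the metastatic libraries at 244 to 525, while at PLCB4 the LM2 libraries stand beside Par.

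The largest fall was at KLF14, a Kruppel-like transcription factor encoded by an intronless gene. Its peak (chr7:130418268-130419541) had 290 and 181 (Par), 18.3 and 34.9 (LM2) and 0 and 1.87 (BrM2). BrM2 held 3 raw counts in all, against 393 in Par. Divided by the size factors of the libraries this was a ratio of 168 (exact 95% interval 57.1 to 819, counting error only). In a fit that took both metastatic lines as 1 group, KLF14 (DESeq2 adjusted p = 0.32) and PLCB4 (0.109) were not called.
The peak at SCNN1A, the alpha subunit of the epithelial sodium channel, also held an alternative start of its neighbour LTBR, the lymphotoxin beta receptor (chr12:6481591-6486324). It had 171 and 192 (Par), 10.7 and 26.5 (LM2) and 10.6 and 13.7 (BrM2). The mark was lower in all 4 metastatic libraries, with a log2 fold change of -3.53 ± 0.43 (DESeq2 adjusted p = 7.46e-13). SCNN1A has a further promoter peak with a higher mean count, which was not a member.
CLDN4, a tight junction claudin, had 279 and 369 (Par), 18.3 and 38.7 (LM2) and 58.0 and 97.7 (BrM2) (chr7:73244932-73247659). KRT7, a keratin of simple epithelia, had 731 and 657 (Par), 200 and 228 (LM2) and 121 and 130 (BrM2) (chr12:52625732-52629696). TNFSF10, the death ligand TRAIL, had 151 and 144 (Par), 29.0 and 34.4 (LM2) and 21.1 and 22.4 (BrM2) (chr3:172238037-172241499). All 3 were lower in both lines, at log2 fold changes of -2.74 for CLDN4, -2.08 for KRT7 and -2.48 for TNFSF10.

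The other falls among the largest 14 were at RNF165, a ubiquitin ligase of BMP signalling, STMN3, a stathmin that destabilizes microtubules, TP53I11, a p53-inducible gene, DNMBP, a CDC42 exchange factor, and FAM83H with its neighbour IQANK1, together with the zinc finger genes ZNF727 and ZNF415 and the X-linked SYAP1 and ZRSR2. The peak of DNMBP lay at an alternative start, 77997 bp from the canonical one. Of these 14 falls, 8 stayed called without any 1 library, 5 were lost without Par replicate 1 and 6 without Par replicate 2. With neighbours' median change removed, ZNF727, SYAP1, ZNF415 and ZRSR2 were no longer called.

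Of the markers of luminal breast epithelium, a part rose. ESR1, the estrogen receptor, was a member, with 44.1 and 37.0 (Par), 262 and 200 (LM2) and 146 and 101 (BrM2). FOXA1, a pioneer factor that opens chromatin for it, was a member too, at a peak that also holds a start of TTC6, with 141 and 151 (Par), 306 and 313 (LM2) and 456 and 345 (BrM2). KRT8 and KRT18, which share a promoter peak, had 492 and 522 (Par), 393 and 403 (LM2) and 446 and 500 (BrM2). They were not called, at a log2 fold change of -0.23, and neither were GATA3 (-0.575), EPCAM (0.81), CDH1 (0.69) and PGR (-0.11). PGR went opposite ways in the lines, at -1.36 in LM2 and 1.14 in BrM2. Of 8 luminal markers with a promoter peak, 2 were thus higher members and 0 were lower members. Summed normalized counts of the list, in which the peak shared by KRT8 and KRT18 enters once for each gene, were 1460 to 1640 in Par, 1640 to 1690 in LM2 and 1970 to 2060 in BrM2.

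The sizes in both lines were then compared. Taken alone against Par, 117 of the 291 members were called in both lines, 72 in LM2 only, 85 in BrM2 only and 17 in neither, where 2.51% of tested peaks were called in LM2 (1.97% higher and 0.538% lower) and 3.73% in BrM2 (2.91% and 0.825%). These comparisons share the Par libraries with each other and with the rule. The direct comparison of BrM2 with LM2 does not use Par, but the rule used its 4 libraries too. A large change in 1 line can carry a peak past the rule, as at PLCB4, so the share at members is no separate test. It called 41 of the 291 (14.1%, against 3.35% of all tested peaks). Of these, 27 stood higher in BrM2 (2.15% of all tested) and 14 stood higher in LM2 (1.19%). The blocked fit called 98 of the 215 higher and 25 of the 76 lower members, against 22.5% of all peaks it tested. In 131 members the lines differed by less than 0.5 on the log2 scale. Among the 215 higher members, LM2 had the larger change in 108.

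**Figure D2:**
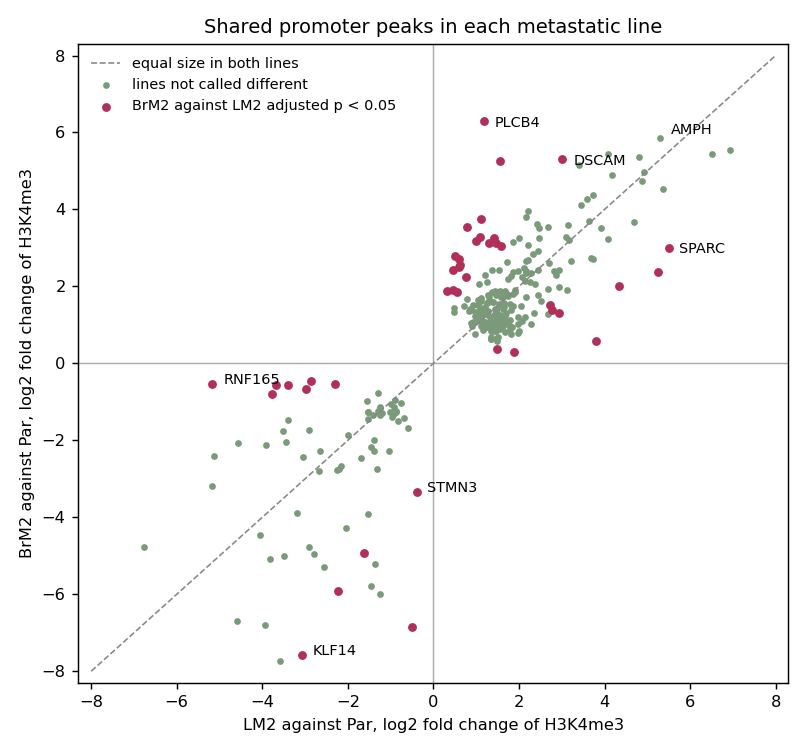
Log2 fold change of H3K4me3 against Par in LM2 (x axis) and BrM2 (y axis) at the 291 shared promoter peaks, 1 point per peak. Dark points are the 41 called between BrM2 and LM2 and the dashed line marks equal size. AMPH lies near the line, while PLCB4 (1.19 in LM2 and 6.29 in BrM2) and SPARC (5.50 and 3.00) lie away from it.

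Gene groups were described by their counts beside those of all 13780 genes with a promoter peak, each gene being taken at its peak with the highest mean count. Of all these genes 194 were higher members and 64 lower members, 2.06% of tested genes were called, and the median log2 fold change was -0.05. With the replicate block 1106 genes were called higher and 1455 lower.

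Guidance receptors and their ligands, which steer axons and migrating cells by attraction and repulsion, had 6 higher and 0 lower members among 62 genes. ROBO1, a receptor for SLIT ligands, had 200 and 212 (Par), 714 and 476 (LM2) and 689 and 518 (BrM2). NTN1, the ligand netrin 1, had 86.3 and 73.2 (Par), 313 and 262 (LM2) and 224 and 225 (BrM2). PLXNC1, a semaphorin receptor, had a log2 fold change of 1.32 and the ephrin receptor EPHA7 one of 0.76 in LM2 and 2.24 in BrM2. All of these were above Par in every metastatic library, with EPHA7 higher in BrM2 than in LM2. The median of the 62 genes was 0.17. With the block 18 were called higher and 3 lower.

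Ion channels had 7 higher and 0 lower members among 94 genes, with a median of 0.34. KCNQ3, a subunit of the neuronal M-current, had 73.5 and 63.2 (Par), 366 and 375 (LM2) and 385 and 342 (BrM2). HCN4, the main pacemaker channel of the heart, had 69.8 and 62.4 (Par), 311 and 242 (LM2) and 360 and 270 (BrM2). TRPC6, a cation channel opened by diacylglycerol, had 44.1 and 40.1 (Par), 215 and 148 (LM2) and 290 and 176 (BrM2). In these genes all metastatic libraries stood well above Par, and BrM2 minus LM2 was -0.03 for KCNQ3, 0.19 for HCN4 and 0.36 for TRPC6 on the log2 scale. KCNK1, a potassium leak channel, was at 1.39. With the block 19 channel genes were called higher and 3 lower.

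Among phosphoinositide signalling genes 3 of 55 were members, PLCB1, PLCB4 and PIP5K1B, a kinase that makes the substrate of phospholipase C. PIP5K1B had 95.5 and 84.8 (Par), 276 and 211 (LM2) and 274 and 205 (BrM2). The median of the 55 genes was 0.001. With the block 11 were called higher and 3 lower.

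Homeobox and other developmental transcription factors had 7 higher and 0 lower members among 112 genes (29 and 7 called with the block). MEIS1, a cofactor of HOX proteins, had 281 and 325 (Par), 509 and 570 (LM2) and 728 and 835 (BrM2). POU3F2, a neural factor, had 290 and 265 (Par), 788 and 601 (LM2) and 646 and 538 (BrM2). FOXA1 and the neural SOX21 were also among them, at 1.26 and 1.07. The median of the list was 0.20.

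Of the TGF-beta and ID genes, 3 of 27 were higher members and 0 lower (5 and 5 called with the block). They were ID4, an inhibitor of basic helix-loop-helix factors (log2 fold change 1.06), INHBB, a subunit of activin B (1.23), and BMP2, a secreted ligand of the family (1.13). ID4 had 588 and 473 (Par), 1440 and 961 (LM2) and 1150 and 868 (BrM2). The median of the 27 genes was -0.06.

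Metalloproteinases and their inhibitors had 4 higher members and 1 lower among 38 genes (9 and 3 called with the block). ADAMTS7, a protease of the extracellular matrix at whose peak MORF4L1 also starts, had 209 and 166 (Par), 627 and 425 (LM2) and 472 and 273 (BrM2). ADAM23, which lacks protease activity and binds integrins, had 60.6 and 57.8 (Par), 204 and 171 (LM2) and 236 and 204 (BrM2). ADAMTS1 was at 0.51 in LM2 and 2.79 in BrM2, and ADAMTS19 was at 1.51 over both lines. The lower member was ADAM12, at -2.47, outside the rule for named genes and chosen after its values were seen. Extracellular matrix genes had 3 higher and 0 lower members among 56 (16 and 3 with the block), namely SPARC, FBLN5, a protein of elastic fibres (1.45), and COL6A1, a collagen chain (1.02). Cadherins had 3 higher and 0 lower members among 43 (12 and 3 with the block), at CELSR1, PCDH8 and PCDH20, with 0.93, 1.13 and 2.31. CDH18, a cadherin that the study shows as an example, was not a member. It had 0 and 0.771 (Par), 3.05 and 7.41 (LM2) and 21.1 and 43.6 (BrM2) (DESeq2 adjusted p = 0.0681).

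A list of genes tied to lung and brain metastasis of these lines, which includes genes that the study chose on these samples and is therefore no independent evidence of direction, had 5 higher members and 1 lower among 33 genes (12 and 5 called with the block). FSCN1, the actin bundler fascin, had 140 and 162 (Par), 613 and 491 (LM2) and 571 and 486 (BrM2). CXCR4, the receptor of CXCL12, had 66.1 and 53.2 (Par), 73.2 and 88.4 (LM2) and 369 and 265 (BrM2). The log2 fold change of FSCN1 was 1.86 in LM2 and 1.80 in BrM2, and that of CXCR4 was 0.47 and 2.42. ROBO1, PLCB1 and SPARC were the other higher members and TNFSF10 the lower one.

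Further lists held few members. Chemokines and cytokines had IL11, an interleukin of the IL-6 family, as a higher member (202 and 395 (Par), 805 and 859 (LM2) and 730 and 786 (BrM2)) and TNFSF10 as a lower one, among 36 genes (8 higher and 4 lower called with the block). Solute carriers had 5 higher and 1 lower among 244 (24 and 23 with the block), with SLCO4A1 at 1.01, SLC22A23 at 0.93, SLC9A2 at 1.68 and SLC16A9 at 2.41, and with SLC34A2 (2.26) and the lower SLC13A3 (-2.74) outside the rule for named genes. Genes named ZNF had 2 higher and 2 lower among 454 (19 and 79 with the block), with ZNF521 at 0.96, ZNF730 at 4.28, ZNF415 at -1.39 and ZNF727 at -1.69. In the list of AP-1, RUNX and ETS factors, the 1 higher member of 39 was RUNX1T1 (5 and 7 with the block). RUNX1T1 is a corepressor that belongs to none of these families, and the list held no other member. The epithelial-mesenchymal list had CLDN4 as the 1 lower member of 20 (4 and 1 with the block). Integrins, synaptic genes and interferon response genes held 0 members at the peaks used for the lists. So did the enzymes of H3K4 methylation, Polycomb, histone genes, ribosomal proteins, APOBEC3 genes and cancer-testis antigens. These lists were not alike. The 5 APOBEC3 genes had a median of 0.63 (2 higher and 0 lower with the block) and the 4 cancer-testis antigens 0.42 (0 and 0). The 42 histone genes, at 26 peaks, had -0.34 (0 and 20) and the 25 Polycomb genes -0.03 (0 and 8). The 82 ribosomal protein genes had 0.003 (4 and 6). The 24 genes of H3K4 methylation had a median of -0.17, and with the block 1 was called higher and 5 lower. Of the 35 members named from lists only, 5 stayed called without any 1 of the 6 libraries, 22 were lost without Par replicate 1 and 29 without Par replicate 2.

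**Figure D3:**
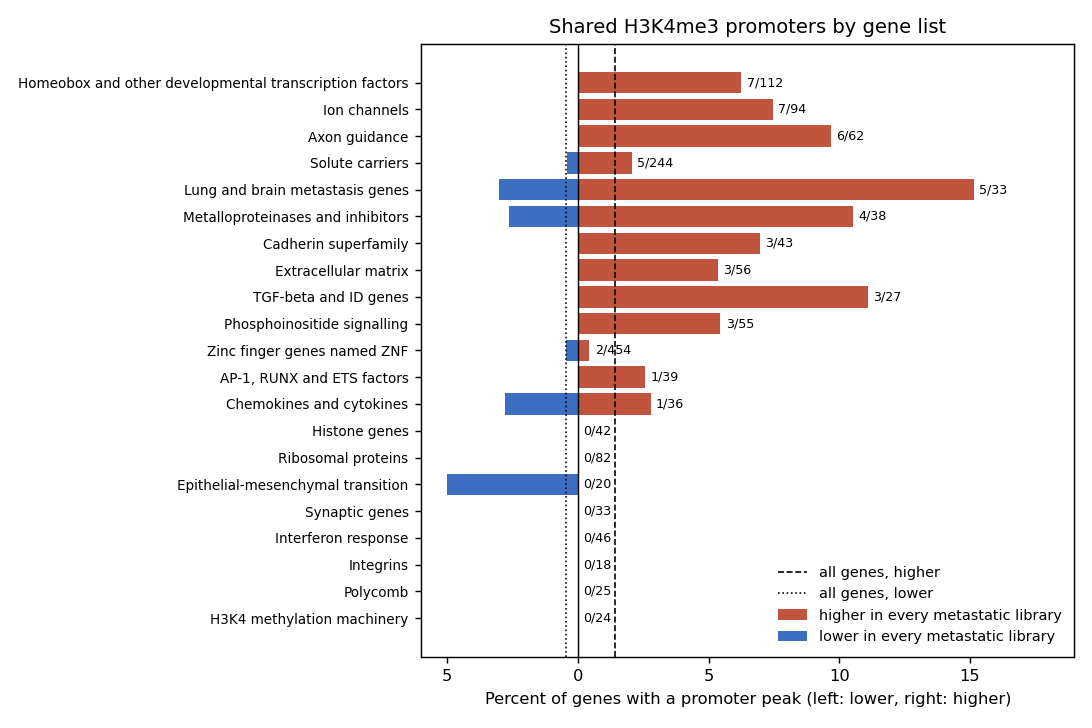
Percent of each list's genes with a promoter peak that were shared members, higher to the right and lower to the left, with the number higher over the number of genes beside each bar. Dashed and dotted lines mark all 13780 genes, of which 194 were higher and 64 lower. Axon guidance stands at 6 of 62 genes and ribosomal proteins at 0 of 82, and the lists of APOBEC3 genes (5) and cancer-testis antigens (4) are not drawn.

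Lower members were gathered on the X chromosome and, less so, on chromosomes 7 and 12. Chromosome 7 held 9 of the 76 (11.8%, against 4.69% of all promoter peaks) and chromosome 12 held 8 (10.5%, against 5.21%). The median log2 fold change of peaks averaging 50 or more was -0.29 on chromosome 7, -0.06 on chromosome 12 and -0.25 on X. The X chromosome held 22 of the 76 (28.9%), against 3.37% of all promoter peaks, and 9 of the 215 higher members. The 22 set the ends of a stretch and lay between position 1570748 and position 41784081, from ASMTL to CASK, and the list held housekeeping genes such as DDX3X and EIF1AX, an RNA helicase and an initiation factor, USP9X, a deubiquitinase, and TMSB4X, which binds actin monomers. Their log2 fold changes ran from -1.48 to -0.89, a narrow range beside the other 54 lower members, whose median was -2.73. This stretch held 63 other H3K4me3 peaks with a mean of at least 50, which leave out the 22 members. Of the 63, 61 were below Par and 34 had all 4 metastatic libraries below both Par libraries. The 22 members were all such peaks called lower there, so that 0 of the 63 were called lower follows from leaving them out. The median of the 63 was -0.72, against -0.18 at 336 peaks on the rest of the chromosome and -0.02 on the other chromosomes. The stretch also held 1 called higher peak, at CNKSR2 (1.27), a scaffold of Ras signalling named after its values were seen. With neighbours' median change removed, 1 of the 22 was still called, the peak of PUDP and STS, which had 3 neighbours and too few for the removal, and the median of the 22 was -0.45, whereas 35 of the other 54 were still called.

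At the 53 H3K27ac peaks there that were paired with no H3K4me3 peak, all 53 fold changes were below 0, 37 were called and the median was -1.25. All 37 were lower. On the rest of the chromosome 101 such peaks had a median of -0.21 and 15 were called lower, and on other chromosomes 7671 had a median of 0.02 and 222 were called lower. The medians in the stretch were -1.13 in LM2 and -1.22 in BrM2. Input libraries were not analysed here and DNA content was not measured, so mark per copy and number of copies cannot be told apart.

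**Figure D4:**
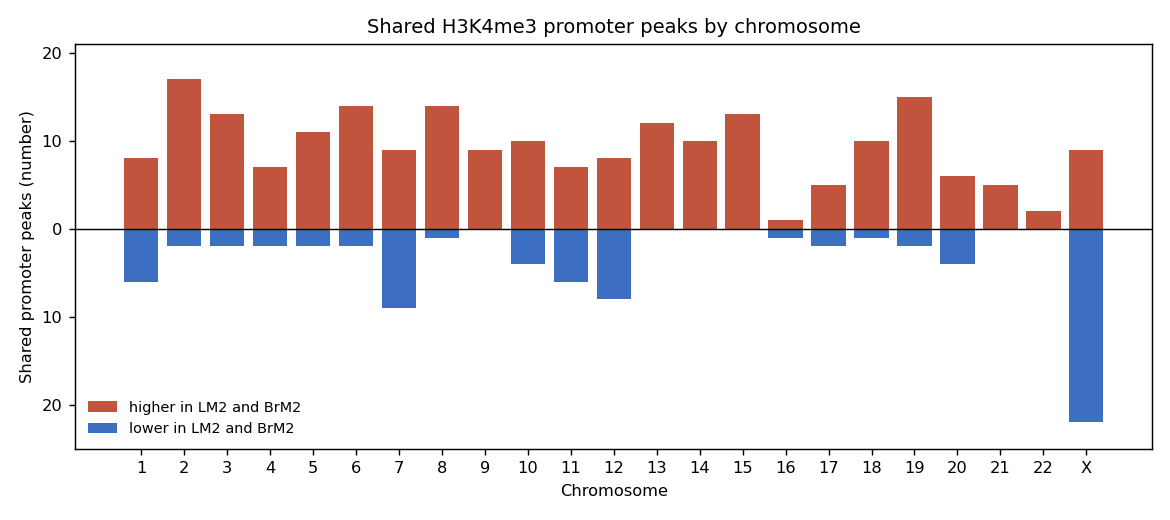
Number of shared promoter peaks per chromosome, higher members above 0 and lower members below. The X chromosome has 22 lower and 9 higher members, and chromosomes 9, 13, 14, 15, 21 and 22 have 0 lower members.

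Higher members were found on all autosomes and the X chromosome, with at most 17 on a chromosome (chromosome 2, 7.91%, against 6.62% of promoter peaks). Beside these shares the spread was uneven. Chromosome 13 held 12 (5.58%, against 1.75%) and chromosome 18 held 10 (4.65%, against 1.46%). Chromosome 1 held 8 (3.72%, against 10.1%) and chromosome 16 held 1 (0.465%, against 4.27%). The median log2 fold change of other peaks within 2.5 Mb was 0.02 for the median higher member. The median length of the peak was 1960 bp at higher members, 3060 bp at the lower members on X and 910 bp at the other lower members, against 2220 bp over all promoter peaks. GC content was 63.8%, 53.6% and 64.1%, against 56.8%. The genes IGSF1, PLCB1, RORA and STOX2 had 2 higher peaks each, at separate starts. At RORA, a nuclear receptor, the peaks rose by 1.34 and 2.45 and at STOX2, a winged-helix factor, by 1.31 and 1.26.

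H3K27ac was not used by the rule and came from other libraries, which held 1994996 to 6450028 counts in peaks. Over all its peaks 5.36% were called, 3.66% higher and 1.7% lower. Of the 215 higher members, 190 overlapped an H3K27ac peak, and 111 of these had all 4 metastatic libraries above both Par libraries, against 5.44% of H3K27ac peaks paired with any H3K4me3 promoter peak. In the H3K27ac fit 52 of 169 tested were called higher (30.8%, against 0.896%) and 0 lower. Of the 76 lower members, 64 overlapped an H3K27ac peak and all 64 fold changes were below 0. All 4 metastatic libraries were below both Par libraries at 44 of them (13.0% of all such peaks), and 29 of 56 tested were called lower (51.8%, against 1.15%). Of those 29, 13 lay on X. The median H3K27ac log2 fold change was 1.07 at higher and -1.17 at lower members, and -0.11 over all promoter peaks. In all, 81 of 225 tested members were called the same way. With a library left out of both marks and the members chosen again, 16 were called without Par replicate 1, 13 without Par replicate 2, 46 and 36 without LM2 replicate 1 and 2, and 35 and 44 without BrM2 replicate 1 and 2.

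AMPH had normalized H3K27ac counts of 3.48 and 3.0 (Par), 33.7 and 46.3 (LM2) and 68.2 and 67.5 (BrM2). PLCB1 had 6.97 and 6.01 (Par), 59.5 and 73.9 (LM2) and 51.7 and 65.5 (BrM2). Both were higher in every metastatic library, with log2 fold changes of 3.99 ± 0.66 (DESeq2 adjusted p = 4.43e-07) and 3.25 ± 0.52 (1.54e-07). KLF14 fell in this mark too, with 19.2 and 33.1 (Par), 1.12 and 6.9 (LM2) and 0.975 and 1.93 (BrM2) (-3.56 ± 0.88, DESeq2 adjusted p = 0.00272). CLDN4 was called lower at -0.92, KRT7 at -0.94 and TNFSF10 at -1.08, and so were SYAP1, ZNF415 and FAM83H with IQANK1. The peak of SCNN1A and LTBR was at -0.64 and was not called (DESeq2 adjusted p = 0.115). STMN3, TP53I11 and ZRSR2 were not called either, and RNF165 and ZNF727 had no adjusted p.
At SPARC H3K27ac was 168 and 225 (Par), 187 and 256 (LM2) and 118 and 166 (BrM2), so the lines overlapped (-0.16 ± 0.28, DESeq2 adjusted p = 0.893). Of the other large H3K4me3 rises, DST (0.29), PDE10A (0.63) and GYPC (-0.10) were not called in H3K27ac. ENG, AFF3, PLCB4, FBXL7 and RASEF were called higher, and DSCAM and TENM1 had no adjusted p. DNMBP had 714 and 732 (Par), 597 and 495 (LM2) and 897 and 877 (BrM2) (-0.06 ± 0.21, adjusted p = 0.96). At DNMBP both LM2 libraries were thus below Par and both BrM2 libraries above it, which the mean over the lines does not show.
Where the metastatic lines differed in H3K4me3, H3K27ac was compared directly between BrM2 and LM2 as well. Of the 41 such members 34 had an H3K27ac peak, and 33 differed in the same direction (all but NKX2-5, at 0.30 in H3K27ac against -2.33). Of 28 tested, 9 were called that way and 0 the other way. Over all tested H3K27ac peaks 2.87% were called. That share covers both directions and peaks away from promoters, so its base is unlike that of the 9. PLCB4 (2.44 higher in BrM2) and ADAMTS1 (3.11 higher in BrM2) were among the 9.

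**Figure D5:**
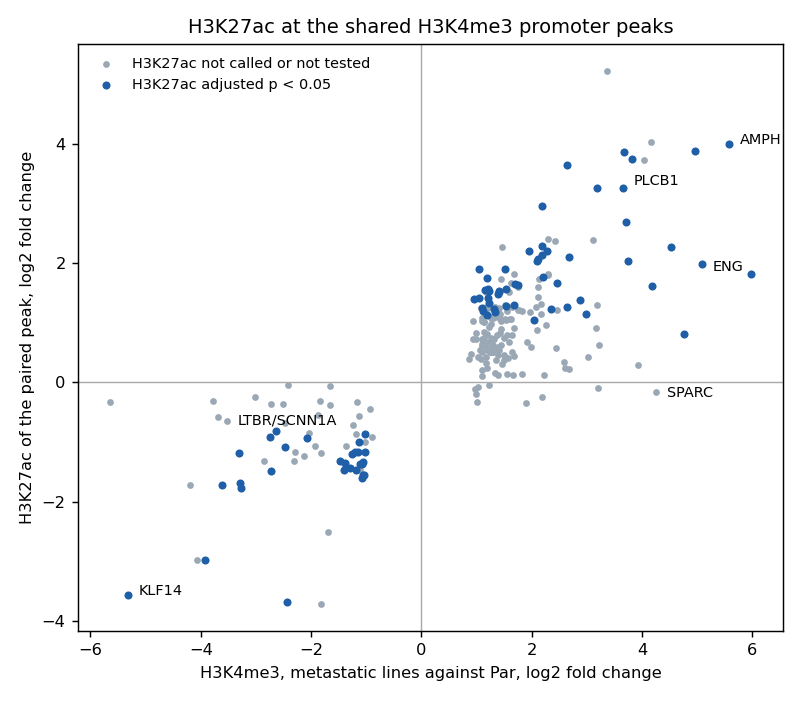
Log2 fold change of the paired H3K27ac peak (y axis) against that of H3K4me3 (x axis), metastatic lines against Par, at the 254 shared promoter peaks with an H3K27ac peak, 1 point per peak. Dark points are the 81 called in H3K27ac. AMPH is high in both marks, KLF14 low in both and SPARC near 0 in H3K27ac.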

How the data were processed

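H3K4me3 and H3K27ac ChIP-seq libraries of Par, LM2 and BrM2 were used, with 2 replicates per line and mark. The study calls these biological replicates. The 3 input samples were not used. Per the submitters' processing notes, the tools were Trimmomatic 0.32, Bowtie2 2.3.4.3 (hg19), Picard 2.18.21 and MACS2 2.1.2. The authors merged the libraries of a mark, called broad consensus peaks and deposited raw read counts per peak, made with featureCounts 1.6.0 from reads extended by 150 bases. All count columns matched a sample (0 unmatched). The labels give 10 min of fixation and the study's methods a longer time.

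Counts were fitted with DESeq2 1.42.0 (Wald test, Benjamini-Hochberg adjustment over all peaks, line as the only term, 3 residual degrees of freedom), with LM2 and BrM2 each weighted 0.5 against Par. The study also used DESeq2 for its metastatic contrast. Intervals and floors of 3 counts cover counting error only. Starts were those of protein-coding transcripts in GENCODE 44 lifted to hg19. edgeR 4.0.16, other size factors, a minimum of 10 counts, a replicate block, removal of 5 Mb medians (not applied to 7 members with too few neighbours), a 2-group fit and leaving out each library were alternatives. The code was tested on simulated data.

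Named genes were the 14 largest rises and 14 largest falls whose normalized count averaged 50 or more, up to 4 members of each gene list by mean count, and PLCB1, SPARC and CDH18. Members, lists and rules were chosen with earlier results of these data known. Log2 differences between replicates correlated between each pair of lines, with r from 0.788 to 0.843 over 13309 H3K4me3 peaks and from 0.407 to 0.607 over 20124 H3K27ac peaks, so replicate numbers were taken to pair libraries. The pairing comes from the numbers in the sample titles and these correlations. A few values and 1 promoter sequence that these rules select are not reported here.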

Additional observations from a re-analysis of the deposited data

Results flagged for a closer look

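Of the named promoters that moved the same way in both lines, 14 differed in size between BrM2 and LM2 by a direct test (DESeq2 adjusted p under 0.05), and each was also called with the replicate block. As BrM2 minus LM2 on the log2 scale, the difference was 5.11 at PLCB4, 2.29 at DSCAM, 2.28 at ADAMTS1, 1.96 at CXCR4, 1.91 at RUNX1T1 and 1.48 at EPHA7, all rises that were larger in BrM2. It was -2.50 at SPARC and -1.12 at SLC22A23, rises that were larger in LM2. Among falls it was 4.63 at RNF165, 2.42 at DNMBP, 2.31 at TP53I11 and 1.77 at FAM83H and IQANK1, which fell mainly in LM2, and -4.49 at KLF14 and -2.96 at STMN3, which fell more in BrM2. RNF165 had normalized counts of 142 and 94.0 (Par), 4.57 and 2.65 (LM2) and 89.6 and 72.2 (BrM2), so that BrM2 was only just below Par. Taken alone against Par among the promoters named by size, BrM2 was not called at RNF165, DNMBP, TP53I11, FAM83H and ZNF415, and LM2 was not called at PLCB4, STMN3, ZNF727 and ZNF415.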

How the results depend on the processing

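No shared promoter peak changed sign in any fit that held it. The rule largely fixed this in advance, since it put every metastatic library on the same side of both Par libraries. Against 536 calls, 215 shared higher and 76 shared lower peaks, 41 members that differed between the lines and 81 called in H3K27ac, edgeR without the block found 143 higher. At least 10 counts in every library, which tests fewer peaks, gave 276 calls, 41 lower and 23 between the lines. The replicate block, which uses the pairing, gave 3019, 627, 627, 304 and 190 with DESeq2 and 6126, 772, 1013, 617 and 459 with edgeR. Removing 5 Mb medians gave 37 lower, and with the block 1653 calls, 582 higher, 233 lower and 163 between the lines. A fit with 2 groups gave 48 lower. With 1 library left out, which leaves fewer samples, calls ran from 92 to 395, higher peaks from 53 to 159, lower from 11 to 62, those between the lines from 18 to 26 and H3K27ac calls from 13 to 46, and the line with 1 library was assumed to vary like the others. Other causes were not tested. Among 64 named peaks, CDH18 became called with the block (log2 fold change 4.56), and no other of them changed its call with the DESeq2 block. Without the block, 14 lost their call with edgeR, 8 with 5 Mb medians removed and 13 in the fit with 2 groups, among them KLF14, PLCB4, RNF165, STMN3, TP53I11, DNMBP, FAM83H and CXCR4. Other windows around starts, starts of genes only, scaling by total counts, same-numbered Par libraries and a larger overlap with H3K27ac moved no count by over 1.5 times. Depth limits peaks with few counts: 2189 peaks had no adjusted p.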

Other observations

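Of 7273 tested peaks away from protein-coding starts, 166 (2.28%) were called higher and 30 (0.412%) lower with no overlap between groups, against 1.87% and 0.52% of all tested peaks. Of these, 52 and 7 averaged 50 normalized counts or more. The 3 largest rises and 3 largest falls of these were taken by the same order of size, a choice made after the data were seen. The largest rise (chr16:88216718-88220490) lay outside protein-coding genes, 213094 bp from the nearest start, at BANP. It had normalized H3K4me3 counts of 1.84 and 2.31 (Par), 146 and 229 (LM2) and 109 and 146 (BrM2). Its H3K27ac rose as well, at a log2 fold change of 5.21 (DESeq2 adjusted p = 0.000309). A peak 136388 bp from SLITRK5 on chromosome 13 had 1.84 and 5.39 (Par), 36.6 and 84.2 (LM2) and 81.7 and 107 (BrM2). Another of the largest rises lay 95307 bp from POTEH on chromosome 22, at 5.19. The largest fall lay 41484 bp from ZNF429 on chromosome 19, with 132 and 143 (Par), 15.2 and 32.3 (LM2) and 26.4 and 27.4 (BrM2), and was followed by a peak 11481 bp from ZNF680 on chromosome 7, with 123 and 163 (Par), 35.1 and 53.5 (LM2) and 27.7 and 29.3 (BrM2). The remaining fall lay 4797 bp from VSIG2, within NRGN, at -1.42. At the peaks near ZNF429 and ZNF680 every metastatic library lay well below Par, and H3K27ac was lower without passing the threshold (DESeq2 adjusted p = 0.0581 and 0.0896).

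Among markers of other tissues, AQP4, the water channel of astrocytes, was a shared higher member with 3.67 and 8.48 (Par), 30.5 and 42.4 (LM2) and 102 and 51.7 (BrM2), whereas GFAP had 22.0 and 49.3 (Par), 15.2 and 48.7 (LM2) and 15.8 and 38.0 (BrM2) and was not called. RBFOX3, SYN1 and OLIG2 had no promoter peak. The neuron and glia list summed to 846 to 1150 in Par, 847 to 1260 in LM2 and 1100 to 1770 in BrM2, most of it MBP, which had 1090 and 752 (Par), 1170 and 700 (LM2) and 1550 and 919 (BrM2) and was not called. SLC1A2, a glutamate transporter of astrocytes, had 34.9 and 36.2 (Par), 45.7 and 55.6 (LM2) and 105 and 88.4 (BrM2) (DESeq2 adjusted p = 0.302). NKX2-1, a factor of lung epithelium, had 44.1 and 78.6 (Par), 85.4 and 137 (LM2) and 195 and 184 (BrM2) (DESeq2 adjusted p = 0.0551), and SFTPB, SFTPA1, SCGB1A1 and AGER had no promoter peak. The lung list summed to 45.9 to 81.7 in Par, 88.5 to 146 in LM2 and 190 to 198 in BrM2, nearly all of it NKX2-1.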
